A study of Mus musculus with 6 samples.

Results

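The genes described here are 9 chemokines of the mouse heart, *Ccl6*, *Ccl9*, *Ccl2*, *Ccl7*, *Ccl8*, *Ccl24*, *Cxcl1*, *Cxcl12*, and *Cxcl16*. They were chosen by gene symbol out of 56923 genes with counts, and all 9 passed the filter on low counts that left 17212 genes for testing. *Ccl6* rose in the LVs of *Lztr1* R409C/+ mice to 2.67 times the WT level, 7 of the other 8 genes had higher fitted levels in mutant mice without passing the test, and *Cxcl12*, the most abundant of the 9, had a lower one. The genes were picked with this same comparison known, so their differences are given as a description and support nothing beyond themselves.

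mRNA-Seq was performed on LVs from 3 WT and 3 heterozygous *Lztr1* R409C/+ mice, with 1 library per mouse. All 6 mice were 12 weeks of age and were perfused with PBS before collection. The sample labels say heart, and the study's methods say LV. The methods also state that phenotypes of the mutation were assessed in male mice only. The mutant mice carry an arginine-to-cysteine substitution knocked into *Lztr1* by CRISPR/Cas9 and backcrossed to C57BL/6J, so the allele is present in every cell type of the tissue and from before birth. LZTR1 is an adaptor that directs proteins of the RAS family to ubiquitination. The comparison addresses how the mutant allele affects gene expression in the LV.

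Chemokines are small secreted proteins that bind G protein–coupled receptors on leukocytes and guide their migration along concentration gradients. CC chemokines such as CCL2 mainly attract monocytes and other mononuclear cells, whereas CXC chemokines include neutrophil attractants such as CXCL1 and the homeostatic CXCL12. In the heart, resident macrophages, fibroblasts, and endothelial cells produce them, and CCL2 acting on CCR2 is the best-known route by which blood monocytes enter the myocardium.

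The libraries held between 66130887 and 72641124 counts. At these depths 3 counts, taken as the floor, were worth 0.0317 to 0.0541 CPM, a floor that reflects counting error alone. The share of mitochondrially encoded genes was 13.8% of counts in WT replicate 3 and 45.4% in mutant replicate 1, and between 29.7% and 37.3% in the other 4 libraries. These 2 libraries stand apart in that share, and the *Ccl6* result is therefore also given without both. Cardiomyocyte markers summed to between 20567 and 35005 CPM in all 6 mice, and no marker of that list was at 0 counts. *Lztr1* itself was at 23.5 ± 1.11 CPM in WT and 25.7 ± 2.03 CPM in mutant mice (SD, n = 3 each). Its log2 fold change was 0.13, with an adjusted p of 0.854 by edgeR's quasi-likelihood test. A point mutation need not alter the level of its mRNA, so this value does not check the genotype labels.

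The 5′ windows of 3 members are shown because *Ccl6* is the member that passed the test, *Ccl9* is its neighbor on the chromosome, and *Ccl2* is the classical monocyte attractant. Each window is the 250 bases before the start of the gene's reference transcript, in GRCm39, read 5′ to 3′ on the gene's strand. Motifs were searched on both strands. Capitals mark matches to AP-1 (TGANTCA) or to the kappaB motif of NF-κB, searched as GGG and TTTCC with 2 free bases between them.
Ccl6, chr11:83483914-83484163, minus strand: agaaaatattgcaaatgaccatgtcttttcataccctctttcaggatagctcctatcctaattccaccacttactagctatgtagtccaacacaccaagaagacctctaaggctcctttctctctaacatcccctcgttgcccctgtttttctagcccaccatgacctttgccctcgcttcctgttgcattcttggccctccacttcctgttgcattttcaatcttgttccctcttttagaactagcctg
Ccl9, chr11:83469468-83469717, minus strand: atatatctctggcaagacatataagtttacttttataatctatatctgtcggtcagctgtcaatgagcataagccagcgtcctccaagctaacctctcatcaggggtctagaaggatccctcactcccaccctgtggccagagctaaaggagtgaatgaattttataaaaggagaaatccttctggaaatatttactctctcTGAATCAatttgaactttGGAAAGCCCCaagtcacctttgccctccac
Ccl2, chr11:81926147-81926396, plus strand: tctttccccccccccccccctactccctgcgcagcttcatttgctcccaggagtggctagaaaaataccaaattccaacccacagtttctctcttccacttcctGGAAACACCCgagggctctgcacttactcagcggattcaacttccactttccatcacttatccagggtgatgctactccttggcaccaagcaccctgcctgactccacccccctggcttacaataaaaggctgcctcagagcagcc

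The *Ccl6* window held no match to AP-1, to kappaB, to the PU.1 motif (GAGGAA), or to the C/EBP motif (TTGCNNAA). In the *Ccl9* window the AP-1 match lay 48 bases before the start and the kappaB match, on the opposite strand, 30 bases before it. This window, chr11:83469468-83469717, lies inside the annotated span of *Ccl9* (chr11:83463745-83473161), where its reference transcript starts. In the *Ccl2* window the kappaB match lay 146 bases before the start, also on the opposite strand. Over all 9 members, the kappaB motif was found in 3 windows (*Ccl9*, *Ccl2*, and *Cxcl1*), AP-1 in 2 (*Ccl9* and *Ccl7*), PU.1 in 4 (*Ccl7*, *Ccl8*, *Ccl24*, and *Cxcl16*), and C/EBP in 0. Of 21631 promoter windows of protein-coding genes of the same length, 1.47% held kappaB, 6.19% AP-1, 23.0% PU.1, and 9.37% C/EBP. These matches describe letters and not binding sites, and a window without a match says only that these letters are not in it.

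*Ccl6* (ENSMUSG00000018927.4, chr11:83478708-83483913, minus strand, GRCm39) encodes a CC chemokine of myeloid cells that signals through CCR1. Its level was 8.05, 5.38, and 5.86 CPM in WT replicates 1 to 3 and 16.4, 16.4, and 18.7 CPM in mutant replicates 1 to 3. The levels rest on 346 to 555 counts per WT library and on 909 to 1352 per mutant library. Every mutant mouse was above every WT mouse, and the gap between the genotypes was wider than the whole range within either of them. The means were 6.43 ± 1.43 and 17.1 ± 1.31 CPM (SD, n = 3 each), and the log2 fold change was 1.42 (SE 0.195), with an adjusted p of 0.0277 by edgeR's quasi-likelihood test over all tested genes. This was 1 call among the 9 members, where 0.0407% of all tested genes (7 genes) were called, 0.0349% of them higher and 0.00581% lower in mutant mice, and nothing is read from that count because the members were chosen on this comparison. Without the 2 libraries of extreme mitochondrial share the log2 fold change was 1.38, with an adjusted p of 0.208. Leaving out 1 mouse at a time kept it between 1.30 and 1.61, but the adjusted p stayed below 0.05 only without WT replicate 1, at 0.0407. The call was also lost with scaling by library size only (log2 fold change 1.28, edgeR adjusted p = 0.103). With replicate number as a block it was lost too (1.43, adjusted p = 0.173).

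*Ccl9* (ENSMUSG00000019122.9, chr11:83463745-83473161, minus strand), whose product also binds CCR1, lies 5546 bases from *Ccl6*. It was at 7.76, 7.60, and 17.7 CPM in WT mice and at 24.1, 19.7, and 13.6 CPM in mutant mice. The groups overlapped, since WT replicate 3 lay above mutant replicate 3. Means were 11.0 ± 5.79 and 19.1 ± 5.24 CPM, with a log2 fold change of 0.79 (SE 0.325) and an edgeR adjusted p of 0.547. The overlap rests on WT replicate 3, the library with the lowest mitochondrial share. Without it the log2 fold change was 1.31 (edgeR adjusted p = 0.155), and without both libraries of extreme share it was 1.12 (adjusted p = 0.295). In the other direction it was 0.47 with scaling by library size only (adjusted p = 0.976) and 0.58 without WT replicate 2 or without mutant replicate 1. An antisense noncoding gene, *E230016K23Rik*, overlaps both *Ccl6* and *Ccl9*. Its counts were 0, 0, and 3 in WT and 4, 16, and 8 in mutant mice, and as the counting is not stated to use strand, reads of the chemokines and of this gene cannot be told apart there. The ratio of *Ccl6* to *Ccl9* CPM was 0.692 ± 0.353 in WT and 0.960 ± 0.360 in mutant mice and overlapped between genotypes.

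*Ccl2*, *Ccl7*, and *Ccl8* are monocyte chemoattractants that lie together on chromosome 11. *Ccl2* (ENSMUSG00000035385.6, chr11:81926397-81928279, plus strand), whose product binds CCR2, was at 0.726, 1.17, and 1.07 CPM in WT and 1.52, 2.32, and 1.41 CPM in mutant mice. Every mutant mouse was above every WT mouse, by a small margin between the closest. The log2 fold change was 0.83 (SE 0.353), and the edgeR adjusted p was 0.554.

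*Ccl7* (ENSMUSG00000035373.3, chr11:81936532-81938351, plus strand), another CCR2 ligand 8252 bases from *Ccl2*, was at 0.666, 1.09, and 1.89 CPM in WT and 1.80, 2.90, and 1.41 CPM in mutant mice. The genotypes overlapped, with WT replicate 3 above mutant replicates 1 and 3. Its log2 fold change was 0.74 (SE 0.418), with an edgeR adjusted p of 0.661. It was 1.21 without WT replicate 3 and 1.29 without both libraries of extreme mitochondrial share, with adjusted p-values of 0.513 and 0.507. Without WT replicate 1 it was 0.45 and without mutant replicate 2 it was 0.38, with adjusted p-values of 0.871 and 0.875. *Ccl8* (ENSMUSG00000009185.3, chr11:82006007-82007625, plus strand), whose mouse product acts on CCR8, was at 0.227, 0.388, and 0.391 CPM in WT and 0.451, 0.587, and 0.676 CPM in mutant mice. All mutant mice were above all WT mice, on 15 to 49 counts per library. The log2 fold change was 0.77 (SE 0.522), and the edgeR adjusted p was 0.726.

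*Ccl24* (ENSMUSG00000004814.11, chr5:135598668-135601905, minus strand) encodes eotaxin-2, an eosinophil attractant made by macrophages. It was at 0.575, 0.870, and 1.02 CPM in WT and 2.45, 1.15, and 3.10 CPM in mutant mice. No mutant mouse overlapped the WT range, although mutant replicate 2 was close to WT replicate 3. The log2 fold change of 1.43 (SE 0.409) was as large as that of *Ccl6*, but its spread was wider and the edgeR adjusted p was 0.318.

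*Cxcl1* (ENSMUSG00000029380.12, chr5:91039094-91040974, plus strand), a neutrophil attractant that binds CXCR2, was at 0.242, 0.652, and 0.412 CPM in WT and 0.505, 0.811, and 0.483 CPM in mutant mice. The genotypes overlapped. Its log2 fold change was 0.46 (SE 0.538), with an edgeR adjusted p of 0.852. It was 0.17 without mutant replicate 2, 0.18 without WT replicate 1, and 0.86 without WT replicate 2.

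*Cxcl16* (ENSMUSG00000018920.12, chr11:70344517-70352620, minus strand) encodes a membrane-bound chemokine that also works as a scavenger receptor and is shed to attract cells with CXCR6. It was at 6.40, 8.44, and 8.52 CPM in WT and 13.5, 10.8, and 10.6 CPM in mutant mice, so that every mutant mouse was above every WT mouse. The log2 fold change was 0.58 (SE 0.194), and the edgeR adjusted p was 0.454. *Zmynd15* and *Med11* overlap this gene on the other strand, and their reads may be shared with it.

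*Cxcl12* (ENSMUSG00000061353.12, chr6:117144945-117158328, plus strand) encodes SDF-1, which stromal and endothelial cells make and which retains CXCR4-bearing cells in tissues. It was at 151, 197, and 130 CPM in WT and 89.0, 109, and 125 CPM in mutant mice. All 3 mutant mice were below all 3 WT mice, with mutant replicate 3 next to WT replicate 3. Means were 159.5 ± 34.5 and 107.6 ± 17.9 CPM, with a log2 fold change of -0.57 (SE 0.193) and an edgeR adjusted p of 0.454.

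**Figure D1:**
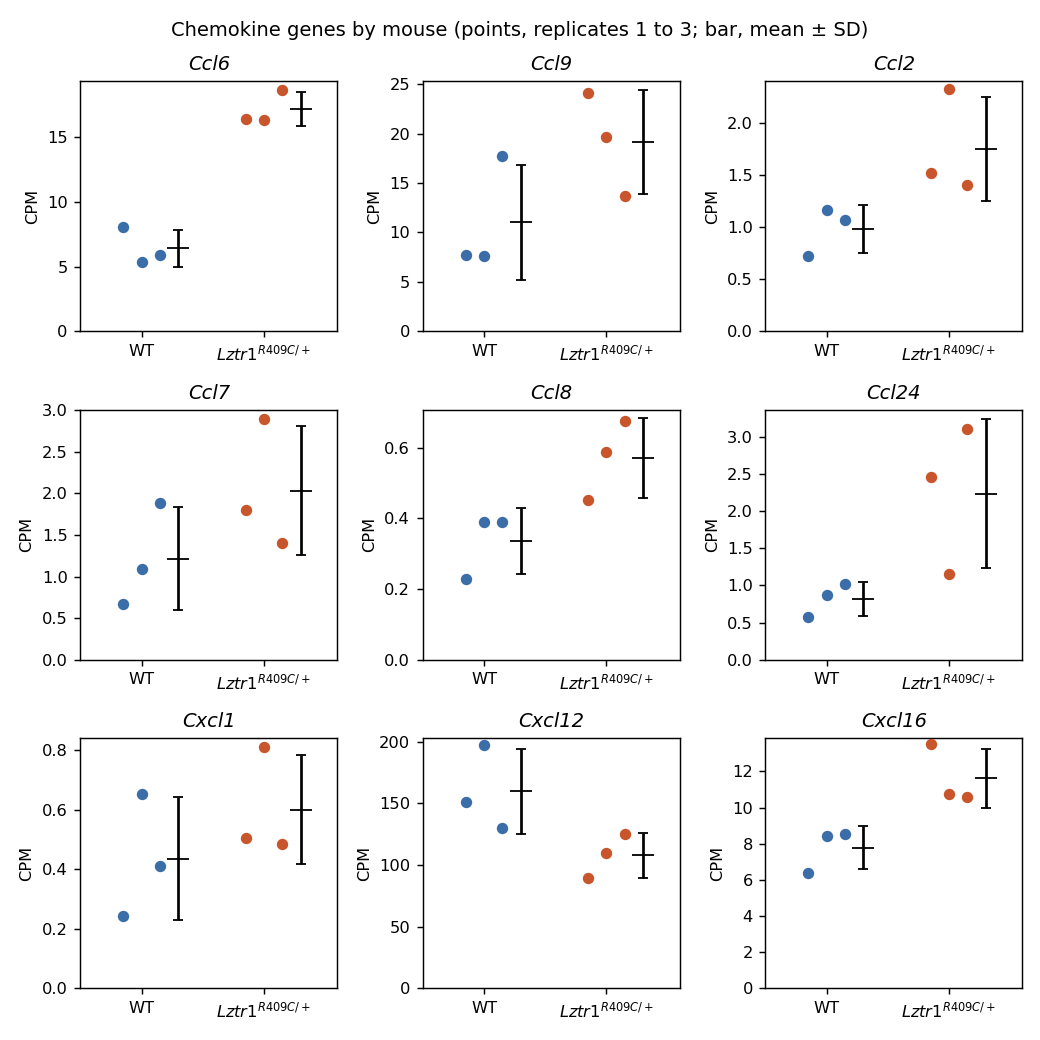
CPM of each of the 9 chemokines (vertical axis, from 0) in the 3 WT and 3 *Lztr1* R409C/+ mice, 1 point per mouse, with the mean ± SD beside the points. *Ccl6* separates the genotypes at 5.38 to 8.05 against 16.4 to 18.7 CPM, while *Ccl9*, *Ccl7*, and *Cxcl1* overlap and *Cxcl12* is lower in mutant mice.

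Of the 9 members, 8 had a higher and 1 a lower fitted level in mutant mice, with a median log2 fold change of 0.77 against 0.01 over all tested genes. Unadjusted p-values of the edgeR quasi-likelihood test were below 0.05 for 5 higher members (*Ccl6*, *Ccl9*, *Ccl2*, *Ccl24*, and *Cxcl16*) and for *Cxcl12*, 6 of 9 in all. The same held for 8.63% of all tested genes, 5.77% in the higher and 2.86% in the lower direction. In 5 members every mutant mouse was above every WT mouse (*Ccl6*, *Ccl2*, *Ccl8*, *Ccl24*, and *Cxcl16*) and in 1 below (*Cxcl12*), where 8.3% and 7.23% of all tested genes did so. All these values stem from the comparison by which the members were picked, and they are a description. Every member kept its direction in all 16 alternative analyses.

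The levels of the 9 genes were ordered per kilobase of exon. In WT mice *Cxcl12* was highest at 19.1 ± 4.14 CPM per kb, with every mouse above *Ccl9*, which was at 3.54 ± 1.86 CPM per kb. *Ccl9* and *Ccl6*, at 3.54 ± 0.784 CPM per kb, did not differ beyond their spread. *Cxcl16*, *Ccl7*, *Ccl2*, *Ccl8*, and *Ccl24* followed between 1.52 and 0.580 CPM per kb with each overlapping its neighbor, and *Cxcl1* was lowest at 0.231 ± 0.110 CPM per kb. In mutant mice the order at the top was *Cxcl12* at 12.9 ± 2.14, *Ccl6* at 9.43 ± 0.721, and *Ccl9* at 6.15 ± 1.68 CPM per kb, with no overlap between neighbors. Lengths of the reference transcript alone, in place of all exons, put *Ccl6* above *Ccl9* in both genotypes, with overlap in WT mice.

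**Figure D2:**
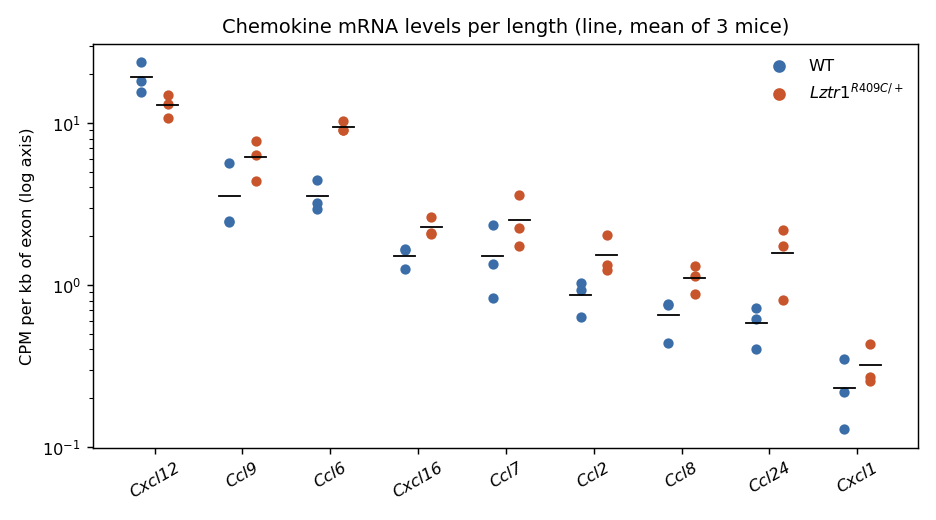
CPM per kb of exon on a log axis for the 9 chemokines in order of their WT level, with 1 point per mouse and a line at the mean of 3 mice. *Cxcl12* leads in both genotypes (19.1 and 12.9 CPM per kb), and *Ccl6* moves from 3.54 to 9.43 CPM per kb.

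The makeup of the chemokine pool differed between genotypes. *Cxcl12* took 67.9% ± 5.96 of the summed CPM of all 41 listed chemokines in WT and 48.2% ± 5.21 in mutant mice, and *Ccl6* took 2.82% ± 0.854 and 7.71% ± 0.174 (SD, n = 3 each). Neither share overlapped between genotypes. The summed level of all chemokines was 233.4 ± 32.2 CPM in WT and 222.2 ± 14.8 CPM in mutant mice and overlapped, whereas without *Cxcl12* it was 73.9 ± 7.57 and 114.6 ± 6.28 CPM and did not. The ratio of *Cxcl12* to *Ccl6* was between 18.8 and 36.7 in WT mice and between 5.42 and 6.68 in mutant mice. These shares and ratios follow from the same levels that picked the members.

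Of the 32 other chemokine genes listed, 16 passed the filter on low counts, and 14 of these had a higher and 2 a lower fitted level in mutant mice, with a median log2 fold change of 0.33. None passed the edgeR test, and *Ccl12* and *Pf4*, 2 of the 16, had unadjusted p-values below 0.05 in the higher direction, as did 5.77% of all tested genes. *Pf4*, a chemokine of platelets and macrophages, was at 8.16 ± 3.28 CPM in WT and 12.7 ± 2.51 CPM in mutant mice, with overlap and an edgeR adjusted p of 0.554. Its log2 fold change of 0.64 was 0.38 without WT replicate 1 and 0.97 without WT replicate 3. *Ccl12*, a mouse relative of CCL2, was at 0.416 ± 0.319 and 1.13 ± 0.334 CPM with all mutant mice above WT, and its adjusted p was 0.515. The log2 fold change of *Ccl12* was 1.45, and 2.26 without WT replicate 2. *Cxcl9*, which attracts T cells through CXCR3, was at 4.77 ± 2.89 and 9.59 ± 1.49 CPM, also without overlap (adjusted p = 0.587), and its log2 fold change of 1.01 was 0.58 without WT replicate 3.

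The other 3 most abundant chemokines of that list showed small differences over all 6 mice. *Cxcl14* was at 9.17 ± 1.08 CPM in WT and 9.25 ± 5.61 CPM in mutant mice. Its log2 fold change of 0.01 was -0.60 without mutant replicate 3 and 0.29 without mutant replicate 2. *Cx3cl1*, a membrane-bound ligand of CX3CR1, was at 7.06 ± 1.05 and 7.32 ± 1.10 CPM. *Ccl21a*, a lymphatic chemokine with near-identical copies that share reads, was at 6.73 ± 0.805 and 8.47 ± 1.83 CPM. All 3 overlapped between genotypes, with edgeR adjusted p-values of 0.994, 0.963, and 0.707. *Ccl1*, *Ccl20*, *Ccl26*, and *Cxcl17* had 0 counts in all 6 libraries. *Ccl3* and *Ccl4*, other chemokines that macrophages make, had at most 6 and 17 counts in any library and were not tested.

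**Figure D3:**
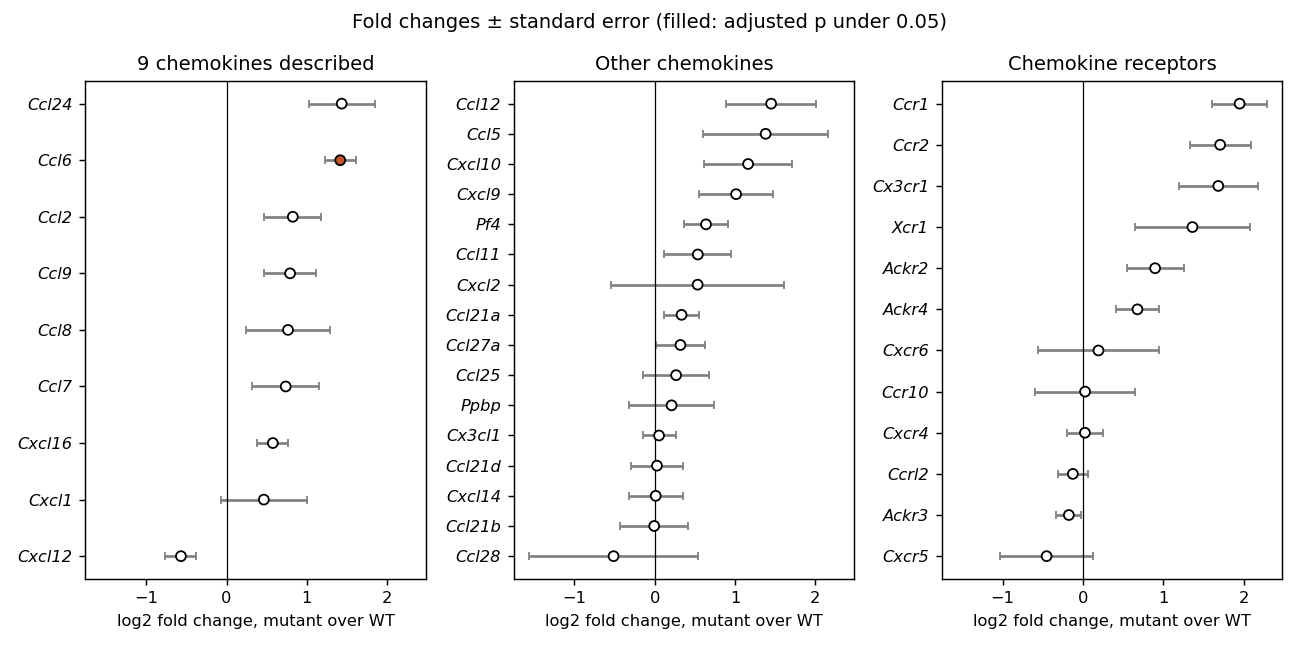
Log2 fold change of mutant over WT mice with its standard error, for the 9 chemokines, the 16 other chemokines tested, and the 12 chemokine receptors tested. The filled point, *Ccl6* at 1.42, is the one with an edgeR adjusted p below 0.05, and *Ccr1* at 1.95 has the largest value among receptors.

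The receptors of the members were measured alongside them. *Ccr1*, the receptor of CCL6 and CCL9, was at 0.681, 1.34, and 0.697 CPM in WT and 3.03, 4.25, and 3.17 CPM in mutant mice. Every mutant mouse was above every WT mouse, with no mutant mouse near the WT range. The log2 fold change was 1.95 (SE 0.340), and the edgeR adjusted p was 0.0985. *Ccr2*, the monocyte receptor of CCL2 and CCL7, was at 1.09, 1.85, and 2.10 CPM in WT and 8.97, 3.52, and 4.07 CPM in mutant mice. The genotypes did not overlap, and mutant replicate 1 stood far above the others. Its log2 fold change was 1.71 (SE 0.379), with an edgeR adjusted p of 0.215.

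The receptors of the remaining members showed no such separation. *Cxcr4* and *Ackr3*, the signaling and the scavenging receptor of CXCL12, had log2 fold changes of 0.03 (SE 0.225) and -0.17 (SE 0.156), and both overlapped between genotypes. The value of *Cxcr4* was -0.14 without mutant replicate 1 and 0.16 without mutant replicate 3. That of *Ackr3* was -0.08 without WT replicate 2. *Cxcr6*, the receptor of CXCL16, was at 0.228 ± 0.0535 CPM in WT and 0.264 ± 0.198 CPM in mutant mice, with overlap. Its log2 fold change of 0.19 was -0.58 without mutant replicate 1 and 0.57 without mutant replicate 3. *Cxcr2*, the receptor of CXCL1, had 4, 4, and 2 counts in WT and 0, 17, and 8 in mutant mice and was not tested. *Ccr8* and *Ccr3*, the receptors of CCL8 and CCL24, had 0 counts in all 6 libraries, which allows up to 0.0541 CPM in the library with the highest floor.

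Of the 23 receptor genes listed, 12 were tested, with 9 higher and 3 lower fitted levels in mutant mice and a median log2 fold change of 0.44. None passed the edgeR test, and 5 of the 12 had unadjusted p-values below 0.05, all in the higher direction, where 5.77% of all tested genes did so: *Ccr1*, *Ccr2*, *Cx3cr1*, *Ackr2*, and *Ackr4*. Under the 16 alternative analyses *Ccr1* and *Cx3cr1* each passed the threshold in 4 and *Ccr2* in 2, all in the higher direction. DESeq2's Wald test and edgeR's exact test called all 3. Of all tested genes they called 143 and 127 higher, against 6 in the main fit. *Ccr1* was also called with library size only and with no filter, where 15 and 19 genes were called higher. *Cx3cr1* was also called with library size only and without WT replicate 2, the latter calling 3 genes higher.

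**Figure D4:**
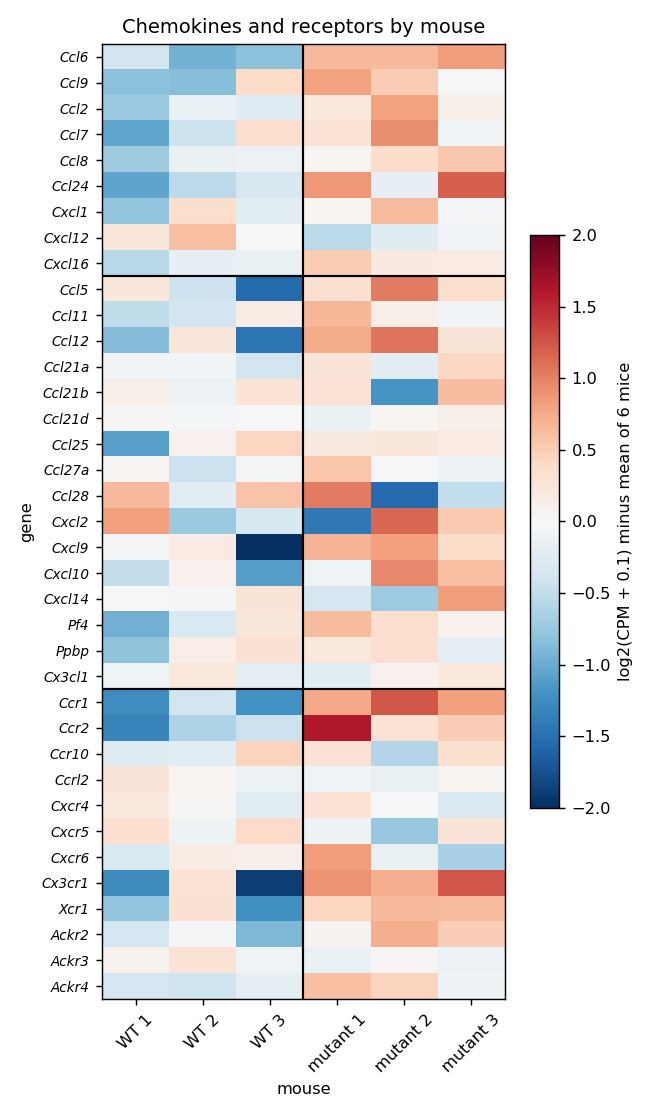
Log2(CPM + 0.1) of each mouse minus the mean of the 6 mice, for the 9 chemokines, 16 other chemokines, and 12 receptors (rows, black lines between the groups) in 3 WT and 3 mutant mice (columns). Red is above and blue below the gene's mean, with colors saturating at 2; *Ccl6*, *Ccr1*, and *Ccr2* are blue in all WT and red in all mutant mice, and *Cxcl12* is the member with its lowest values in mutant mice.

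Genes that act on chemokines or downstream of their receptors had no member past the edgeR threshold. Of 13 genes that cleave, present, or bind chemokines, 11 were tested, and 10 had higher and 1 a lower fitted level in mutant mice, 5 of the higher with an unadjusted p below 0.05, against 5.77% of all tested genes. *Dpp4*, the peptidase that inactivates CXCL12, was at 2.41 ± 0.338 CPM in WT and 5.21 ± 1.11 CPM in mutant mice (edgeR adjusted p = 0.215), and *Mmp12*, the macrophage elastase, at 0.221 ± 0.110 and 0.945 ± 0.267 CPM (adjusted p = 0.275). Neither overlapped between genotypes. All 22 listed genes of receptor signaling were tested, with 20 higher, 2 lower, and 12 unadjusted p-values below 0.05, all 12 in the higher direction and against the same 5.77%. *Ncf1*, a subunit of the phagocyte NADPH oxidase, was at 3.35 ± 0.388 and 6.36 ± 0.646 CPM, and *Rac2*, a GTPase of blood cells that drives migration, at 2.03 ± 0.639 and 4.67 ± 0.749 CPM, both without overlap and with an edgeR adjusted p of 0.215. *Dpp4*, *Mmp12*, *Ncf1*, and *Rac2* each passed the threshold in 2 of the 16 alternative analyses. Over these alternatives, between 0 and 143 of all tested genes were called higher, against 6 in the main fit.

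Targets of NF-κB, which induces *Ccl2* and *Cxcl1* in inflammation, were listed as a pathway related to the members. Of 16 listed, 14 were tested, with 12 higher and 2 lower fitted levels, a median log2 fold change of 0.24, and 1 unadjusted p below 0.05 among the 14, a share near the 5.77% of all tested genes in the higher direction. That gene was *Sele*, which encodes E-selectin of activated endothelium, at 0.563 ± 0.261 CPM in WT and 1.67 ± 0.193 CPM in mutant mice (edgeR adjusted p = 0.275). *Birc3*, an inhibitor of apoptosis, was at 6.89 ± 1.18 and 8.80 ± 1.02 CPM (adjusted p = 0.663).

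The LV holds many cell types, and in bulk tissue more cells of a type and more RNA per cell cannot be told apart. Macrophage markers were higher in the same genotype as *Ccl6*. All 15 listed markers were tested and had higher fitted levels in mutant mice, 13 of them without overlap, where 8.3% of all tested genes lay that way, and none was at 0 counts. Their summed level was between 258.7 and 299.2 CPM in WT and between 440.0 and 542.0 CPM in mutant mice. 2 of them passed the test, the complement genes *C1qc*, at 13.7 ± 0.0182 and 31.1 ± 2.51 CPM, and *C1qb*, at 18.5 ± 1.89 and 41.2 ± 2.66 CPM (SD, n = 3 each), both with an edgeR adjusted p of 0.0241, where 0.0349% of all tested genes were called higher. Each of the 2 calls held in 7 of the 16 alternative analyses and was lost in the other 9. Within genotypes, the correlation of log2 CPM with *Ccl6* was 0.0076 for *Csf1r*, -0.43 for *C1qb*, and 0.67 for the myeloid adaptor gene *Tyrobp*, given as a description over 6 mice.

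*Ccl6* was set against these markers in each mouse. As a percentage of the summed macrophage markers, *Ccl6* was 3.11, 2.05, and 1.96 in WT and 3.03, 3.72, and 4.20 in mutant mice. WT replicate 1 lay above mutant replicate 1, so the genotypes overlapped. *Lyz2* made up 248.5 of the 542.0 CPM of the markers in mutant replicate 1 and at most 145.1 CPM in the other mice. Without *Lyz2*, a choice made after seeing the data, *Ccl6* was 4.73, 3.19, and 3.22% of the remaining markers in WT and 5.59, 5.51, and 6.23% in mutant mice, and the genotypes did not overlap. The ratio of *Ccl6* to *Csf1r*, the receptor that macrophages need to survive, was 0.171 ± 0.0407 in WT and 0.315 ± 0.0148 in mutant mice, and its ratio to *Adgre1*, which encodes F4/80, was 0.580 ± 0.147 and 1.05 ± 0.0940, both without overlap. Against *C1qb* and *C1qc* it was 0.350 ± 0.0901 and 0.419 ± 0.0610, and 0.471 ± 0.105 and 0.551 ± 0.0221, both with overlap. Whether the genotypes separated thus varied with the markers used. *Ccl9* was 3.94% ± 1.71 of the summed markers in WT and 3.99% ± 0.801 in mutant mice. The part of macrophage content in the levels of *Ccl6* and the other CC chemokines was not tested.

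**Figure D5:**
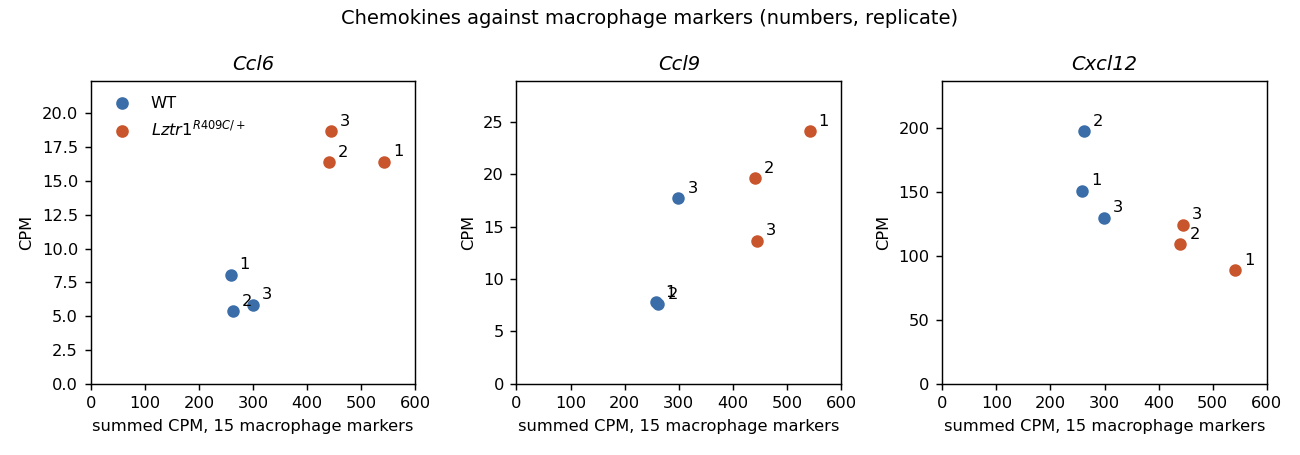
CPM of *Ccl6*, *Ccl9*, and *Cxcl12* (vertical axes, from 0) against the summed CPM of 15 macrophage markers (horizontal axes) in each mouse, numbered by replicate. The WT mice lie between 258.7 and 299.2 and the mutant mice between 440.0 and 542.0 on the horizontal axes, and *Ccl6* and *Cxcl12* separate the genotypes while *Ccl9* does not.

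Of 8 monocyte markers, 6 were tested, with 5 higher and 1 lower fitted level, and their summed level was between 48.8 and 64.8 CPM in WT and between 44.9 and 82.6 CPM in mutant mice. After *Ccr2*, the smallest unadjusted p was that of *Plac8*, at 0.0864 ± 0.0911 and 0.498 ± 0.147 CPM (edgeR adjusted p = 0.495). The lower marker was *Ly6c2*, at 1.19 ± 0.567 and 0.731 ± 0.461 CPM (log2 fold change -0.72, adjusted p = 0.743). Its log2 fold change was -1.37 without mutant replicate 1 and -0.39 without WT replicate 3. *Chil3* was at 0 counts. Most of the summed level came from *Fn1*, at 38.0 ± 9.77 and 42.9 ± 20.2 CPM, and *Vcan*, at 17.7 ± 1.03 and 18.6 ± 5.28 CPM, which fibroblasts also express. Of 9 neutrophil markers, 3 were tested, with 2 higher and 1 lower fitted level, and *Ly6g*, *Camp*, and *Ngp* had 0 counts in all 6 libraries. The neutrophil markers summed to between 1.06 and 1.93 CPM in WT and between 2.54 and 2.68 CPM in mutant mice, without overlap, with *S100a8* at 0.178 ± 0.0561 and 0.672 ± 0.104 CPM, *Csf3r* at 0.819 ± 0.264 and 1.18 ± 0.308 CPM, and *S100a9* at 0.413 ± 0.307 and 0.410 ± 0.0360 CPM. None of the 3 passed the edgeR test. For *S100a9* the log2 fold change of -0.0058 was 0.76 without WT replicate 2 and -0.36 without WT replicate 1. For *Csf3r* it was 0.54, and 0.29 without WT replicate 3.

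Among lymphoid, dendritic, mast cell, and erythroid markers no gene passed the edgeR threshold. All 6 B cell markers had higher fitted levels in mutant mice, and their sum was between 5.71 and 7.81 CPM in WT and between 9.47 and 18.0 CPM in mutant mice. The 2 with the smallest unadjusted p were *Ighm*, with a log2 fold change of 0.97 that was 0.64 without mutant replicate 1, and *Cd79a*, at 1.61. The T and NK cell markers, of which 5 of 9 were tested and 5 higher, summed to between 0.863 and 1.32 CPM in WT and between 1.75 and 2.77 CPM in mutant mice, with *Lck* at 1.59 on the log2 scale. *Cd3e* had 11, 0, and 0 counts in WT and 11, 40, and 9 in mutant mice, so its WT level rests on 1 library and no fold is given. Of 9 dendritic and mast cell markers, 8 were tested, with 7 higher and 1 lower, and the log2 fold changes were 1.28 for *Mcpt4*, 0.61 for *Clec9a*, and -0.01 for *Zbtb46*, the lower one. The 5 erythroid markers were higher and overlapped between genotypes, with sums from 579 to 1479 CPM in WT and from 1042 to 2625 CPM in mutant mice, and the near-identical *Hba-a1* and *Hba-a2* had log2 fold changes of 1.02 and 0.90. The part of blood cells left in the tissue in the chemokine levels was not tested.

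The summed markers of fibroblasts and endothelial cells, which make *Cxcl12*, overlapped between genotypes. The 6 fibroblast markers summed to between 621.3 and 808.4 CPM in WT and between 663.7 and 801.0 CPM in mutant mice, and the 6 endothelial markers to between 714.4 and 837.1 and between 680.6 and 983.1 CPM. In both lists 4 markers were higher and 2 lower. *Lum* and *Tcf21* had log2 fold changes of 0.61 and 0.54, and *Fabp4* and *Kdr* 0.52 and -0.24. The value of *Kdr* was -0.03 without mutant replicate 1 and -0.44 without mutant replicate 3. Of 6 markers of smooth muscle and pericytes 4 were lower, *Myh11* at -0.71 and *Tagln* at -0.65 on the log2 scale. In these 2 every mutant mouse was below every WT mouse, where 7.23% of all tested genes lay that way. The 6 markers summed to between 648.8 and 764.0 CPM in WT and between 595.4 and 741.5 CPM in mutant mice. Most of that sum came from *Rgs5*, at 573.2 ± 48.4 and 539.0 ± 98.0 CPM. Of the 6 cardiomyocyte markers, 4 were lower and 2 higher, with *Ryr2* at -0.33, which was -0.20 without mutant replicate 1, and *Myl2* at 0.51, which was 0.12 without mutant replicate 3. Among the atrial markers, *Nppa* and *Myl4* had log2 fold changes of 0.53 and 0.06, the first of which was 0.24 without mutant replicate 2 and 0.84 without WT replicate 3, and no adipocyte marker passed the filter on low counts. None of these genes passed the edgeR test.

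Likeness to *Ccl6* was measured as Pearson's correlation of log2 CPM over the 6 mice, across 12062 protein-coding genes with a mean of at least 1 CPM. The points share the 2 genotypes and the 6 libraries, so a gene that differs between genotypes as *Ccl6* does comes first, and the values are a description. The 5 genes most like it were *Cd300a* and *Ptprj*, both at 0.981, *Tlr8* at 0.980, *Tyrobp* at 0.978, and *Pdlim4* at 0.978. *Cd300a* encodes an inhibitory receptor and *Tyrobp* a signaling adaptor of myeloid cells, *Ptprj* a receptor phosphatase, *Tlr8* an endosomal RNA sensor, and *Pdlim4* a cytoskeletal protein. Of these, *Tyrobp* had the largest log2 fold change, 1.64 (SE 0.254), from 1.90 ± 0.369 CPM in WT to 5.91 ± 0.953 CPM in mutant mice, with an edgeR adjusted p of 0.0667. Among the members, the value was highest for *Ccl24* at 0.750 and lowest for *Cxcl12* at -0.768. After the mean of each genotype was removed, the values were -0.21 for *Ccl24* and -0.097 for *Cxcl12*, and they were below 0 for all 8 other members, down to -0.88 for *Cxcl1*.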

How the data were processed

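For each of 6 libraries the authors deposited raw gene counts, which were not normalized. Their processing notes name Trim Galore, HISAT2, StringTie, and the build GRCm39. Tool versions are not given in the sources used here. They also deposited a table of their own edgeR comparison (log2 fold changes, mean log2 CPM, p-values, and adjusted p-values), of which only gene names were used. That table named 5 of the 9 members, and *Ccl7*, *Ccl8*, *Ccl24*, and *Cxcl1* were named by gene identifier from GENCODE M39, which also gave positions and exon lengths.

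In edgeR 4.0.16 (R 4.3.3), low counts were removed by filterByExpr, libraries were scaled by TMM, and genotypes were tested with the robust quasi-likelihood test, two-sided, with Benjamini-Hochberg adjustment over 17212 genes at 0.05. CPM used TMM-scaled library sizes. The script was tested on simulated data. Alternatives comprised 15 listed in advance and 1 added after seeing the data, including DESeq2 1.42.0. No sample column was left out. 1 gene is not reported here.

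The members and lists were chosen with earlier results of these data known. Named genes were the members, the receptor of each, the 5 most abundant other chemokines, the 2 genes with the smallest unadjusted p of each other list, *Lztr1*, and the 5 genes most like *Ccl6*. *Ccl12*, *Ccl3*, *Ccl4*, *Ly6c2*, *Fn1*, *Vcan*, *S100a9*, *Zbtb46*, *Csf1r*, *Adgre1*, *Lyz2*, *Rgs5*, and the genes listed by unadjusted p were named after their values were seen. Each group held 3 mice, and the smallest p of an exact permutation test over them would be above the threshold, so none was used.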

Additional observations from a re-analysis of the deposited data

How the results depend on the processing

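All 9 members kept their direction in all 16 alternatives. The count of genes called higher was 6 and became 15 with scaling by library size only, 143 with DESeq2's Wald test, 127 with edgeR's exact test, 19 with no filter, 0 with the replicate block, 0 in the 4 mice with intermediate mitochondrial share (added after seeing the data), and 1 to 3 with 1 mouse left out. The count called lower was 1 and became 6, 15, and 13 with the first 3 of these, 0 with at least 10 counts in every mouse, and 1 to 2 with 1 mouse left out. Of the members, 1 was called (*Ccl6*), and 0 with library size only, with the replicate block, and in the 4 mice, and 0 to 1 with 1 mouse left out. Receptors called numbered 0, and 2 with library size only (*Cx3cr1* and *Ccr1*), 3 each with DESeq2 and the exact test (*Cx3cr1*, *Ccr1*, and *Ccr2*), 1 with no filter (*Ccr1*), and 0 to 1 with 1 mouse left out. Of the other chemokines, 0 were called under every alternative.

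The log2 fold change of *Ccl6*, 1.42, was 1.28 with library size only (edgeR adjusted p = 0.103), 1.43 with the replicate block (adjusted p = 0.173), 1.38 in the 4 mice (adjusted p = 0.208), and 1.30 to 1.61 with 1 mouse left out. Adjusted p-values over its 16 alternatives ran from 2.41e-07 to 0.208, 8 of them past the threshold. Library size only moved the median of all genes to -0.14. The cause of these differences was not tested. Fits with 1 mouse left out, and those in 4 mice, rest on fewer samples. No pairing by replicate number was seen. Deviations of same-numbered mice correlated at -0.00133, 0.0215, and -0.0573 over 17212 genes, and not every mouse correlated best with its own number. These deviations are taken from means of 3 mice, so they cannot exclude that the mice were paired. *Ccl8* and *Cxcl1* rest on few counts, 15 to 49 and 16 to 58 per library. The part of depth in their spread was not tested.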
